A study of Mus musculus with 18 samples.

Results

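A set of 8 genes that hold back the cell cycle was followed through the polysome gradients of mouse embryonic stem cells (ESCs) with and without the RNA helicase DDX6. The genes were listed by name, and each symbol was matched to its Ensembl identifier in the count table. They were the CIP/KIP inhibitors Cdkn1a, Cdkn1b and Cdkn1c, the pocket proteins Rb1, Rbl1 and Rbl2, and the Hippo kinases Lats1 and Lats2, or 8 of the 51467 genes in the table. All 8 were among the 12705 genes with enough counts to be tested.

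ESCs pass from G1 into S phase with little restraint. The CIP/KIP proteins p21 (Cdkn1a), p27 (Cdkn1b) and p57 (Cdkn1c) bind and inhibit cyclin-dependent kinases, and the pocket proteins pRB (Rb1), p107 (Rbl1) and p130 (Rbl2) bind E2F factors and repress their targets until those kinases phosphorylate them. LATS1 and LATS2 phosphorylate the coactivators YAP and TAZ and keep them out of the nucleus. The ESCC miRNAs, the abundant miRNAs of ESCs that promote the cell cycle, act against several of these inhibitors, and DDX6 is a helicase that binds factors of deadenylation and decapping and acts with miRNAs in translational repression.

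The cells were V6.5 ESCs kept in LIF, 15% serum and the 2i inhibitors of MEK and GSK3, either wild-type (WT) or Ddx6 knockout (KO). Ribosomes were halted with 100 µg/ml cycloheximide for 2 min, and each lysate was separated on a 10 to 50% sucrose gradient into a monosome fraction, a low polysome fraction (2 to 4 ribosomes) and a high polysome fraction (4 or more). Each genotype was run on 3 gradients, for 18 libraries (6 groups, n = 3). The KO cells were CRISPR-Cas9 clones, one with a single-nucleotide insertion and the other with a large deletion, both leading to a premature stop codon. The labels put KO gradient 1 in clone 1 and KO gradients 2 and 3 in clone 2, so a difference between clones and a difference between gradients cannot be told apart. Nothing in the labels says whether the 3 WT gradients, or the 2 gradients of KO clone 2, came from separate cultures, so p-values measure the spread between these gradients, which may be technical.

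The seed pairing that links the ESCC miRNAs to the inhibitors is shown first. Below are mature miRNAs of the miR-290 cluster (chromosome 7) and the miR-302 cluster (chromosome 3) that share the seed of miR-294-3p, from RefSeq on GRCm38.p6, with the seed (bases 2 to 8) in capitals.
mmu-miR-291a-3p: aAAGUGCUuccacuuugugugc
mmu-miR-294-3p: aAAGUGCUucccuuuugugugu
mmu-miR-295-3p: aAAGUGCUacuacuuuugagucu
mmu-miR-302b-3p: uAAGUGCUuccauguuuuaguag
mmu-miR-302d-3p: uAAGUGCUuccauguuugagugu

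The match to this seed in a transcript is AGCACTT (a 7mer), or AGCACTTA with the A opposite base 1 of the miRNA (an 8mer), and GCACTTA was searched as the other 7mer. The sense strand of the annotated 3′ UTRs of Gencode M21 (GRCm38) held a match in 5 of the 8 genes. The 8mer was present in Cdkn1a, Rbl2 and Lats2, and a 7mer in Cdkn1a, Rbl1, Lats1 and Lats2. Cdkn1b, Cdkn1c and Rb1 held none of these letters. Each site lay in 2 of 4 transcripts with an annotated 3′ UTR for Cdkn1a, 2 of 3 for Rbl2 and 1 of 1 for Rbl1. For Lats1 it lay in 1 of 3, and for Lats2 each site lay in 1 of 4. Which of these transcripts the counts came from was not tested. Of 11768 tested genes with an annotated 3′ UTR, 3.76% held the 8mer and 21.9% held an 8mer or a 7mer. The genes were listed partly as ESCC miRNA targets, so the share among them describes that choice. The sites are shown with the match in capitals.
Cdkn1a 8mer, chr17:29100500-29100507, + strand: cgtgggtgtcaaAGCACTTAgtgg
Rbl2 8mer, chr8:91123830-91123837, + strand: atttttcaataaAGCACTTAtaaa
Lats2 8mer, chr14:57691086-57691093, - strand: cagtatggaaagAGCACTTAtttt
Cdkn1a 7mer, chr17:29099828-29099834, + strand: tcagacctgaatAGCACTTtgga
Rbl1 7mer, chr2:157147478-157147484, - strand: ttgcctgatcaaAGCACTTttgg
Lats1 7mer, chr10:7714156-7714162, + strand: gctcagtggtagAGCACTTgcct
Lats2 7mer, chr14:57690988-57690994, - strand: gttgtatctgatAGCACTTgtcc
The site of Rbl2 lies 5 to 7 bases before the annotated end of its 3′ UTR and overlaps the letters AATAAA, while the 8mer of Cdkn1a lies 215 to 220 bases before the end and that of Lats2 1424 bases before it.

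Library totals ranged from 2543617 to 11474550 counts, with the 3 WT monosome libraries shallowest. Levels are given as TMM-scaled CPM, that is counts set against a fixed library total after edgeR's TMM correction for composition. Each library was set against its own total, so CPM give a share of the reads of one fraction. Between fractions, CPM and their ratios therefore compare shares, not amounts of mRNA. Reads of these 3′ end libraries mark transcript ends, so CPM were not divided by transcript length. Ddx6 itself lay between 143 and 212 CPM in the 9 WT libraries and between 9.68 and 82.7 CPM in the 9 KO libraries, where clone 1 kept 55.3 to 82.7 CPM and clone 2 kept at most 26.7 CPM. The abundance of Ddx6 fell by 2.75 on the log2 scale (SE 0.37, limma adjusted p = 5.23e-05). All 9 naive ESC markers were detected in every library, with a summed level of 2460 to 5706 CPM in WT and 2751 to 4576 CPM in KO. The summed level of 6 fibroblast feeder markers was 3.95 to 10.4 CPM in WT and 5.79 to 10.97 CPM in KO. Of these, Col1a1 and Thy1 passed the filter and were detected in every library, while Col3a1 was at 0 in all 18 libraries. Col1a2, Postn and Dcn did not pass the filter and were at 0 in some libraries. The 4 primed epiblast markers summed to 103 to 149 CPM in WT and to 32.7 to 80.4 CPM in KO, with Fgf5 at 0 in all libraries. The 7 early germ layer markers summed to 29.6 to 49.5 CPM in WT and 32.4 to 76.0 CPM in KO, with Sox1 the one marker of these that passed the filter. The part of these marker differences in the changes below was not tested.

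**Figure D1:**
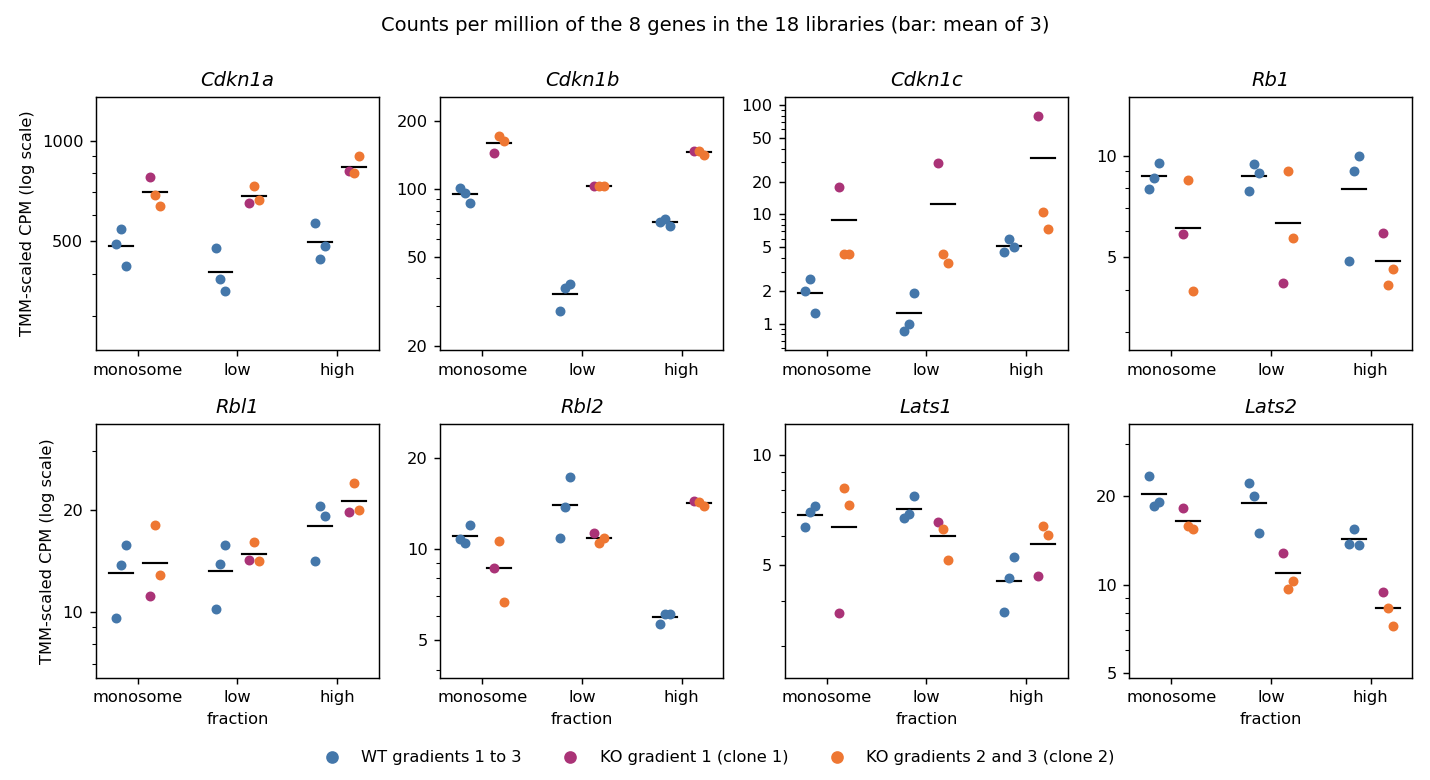
TMM-scaled CPM (log scale) of the 8 genes in the monosome, low and high polysome fraction of each gradient, with a bar at the mean of 3 libraries. All KO libraries lie above all WT libraries of the same fraction for Cdkn1a, Cdkn1b and Cdkn1c, clone 1 stands far above clone 2 for Cdkn1c alone, and Rbl2 is higher in KO in the high polysome.

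In KO cells the CIP/KIP inhibitors were more abundant, while Rb1 and Lats2 were less abundant. Abundance here is the mean of log2 CPM over the 3 fractions of a gradient, compared between 3 WT and 3 KO gradients. These libraries held no ribosome-free fraction and no total RNA, so abundance covers only the monosome and polysome fractions. The 3 fractions count equally in it, however much RNA each held. A change in abundance need not equal the change in ribosome-bound mRNA or in all mRNA of the cells. Values are log2 differences unless a fold is named. Cdkn1c rose 4.36-fold, Cdkn1b 2.19-fold and Cdkn1a 1.60-fold, and Rb1 and Lats2 were 1.498-fold and 1.535-fold lower. Without clone 1 the rise of Cdkn1c was 1.23, and the Rb1 call held in 10 of 13 alternative runs. Rbl1, Rbl2 and Lats1 did not pass the test, with log2 differences of 0.18, 0.18 and -0.034. A gene was called when its Benjamini-Hochberg adjusted p over all genes tested was under 0.05. By that rule 3 of the 8 genes rose and 2 fell, a share near the 56.6% of all tested genes called in this comparison. In a bulk sample, a change in every cell and a change in the share of some cells cannot be told apart.

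The same contrast within single fractions called 2 of the 8 genes in monosomes (both higher), 3 in low polysomes (2 higher, 1 lower) and 4 in high polysomes (3 higher, 1 lower). Of all tested genes, 38.6% were called in monosomes, 47.7% in low polysomes and 46.5% in high polysomes, and no fraction had a count among the 8 genes that stood out from that background. The median difference of the 8 genes was 0.53 in the high polysome, against -0.0072 over all genes, and -0.085 in the monosome, against -0.033.

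**Figure D2:**
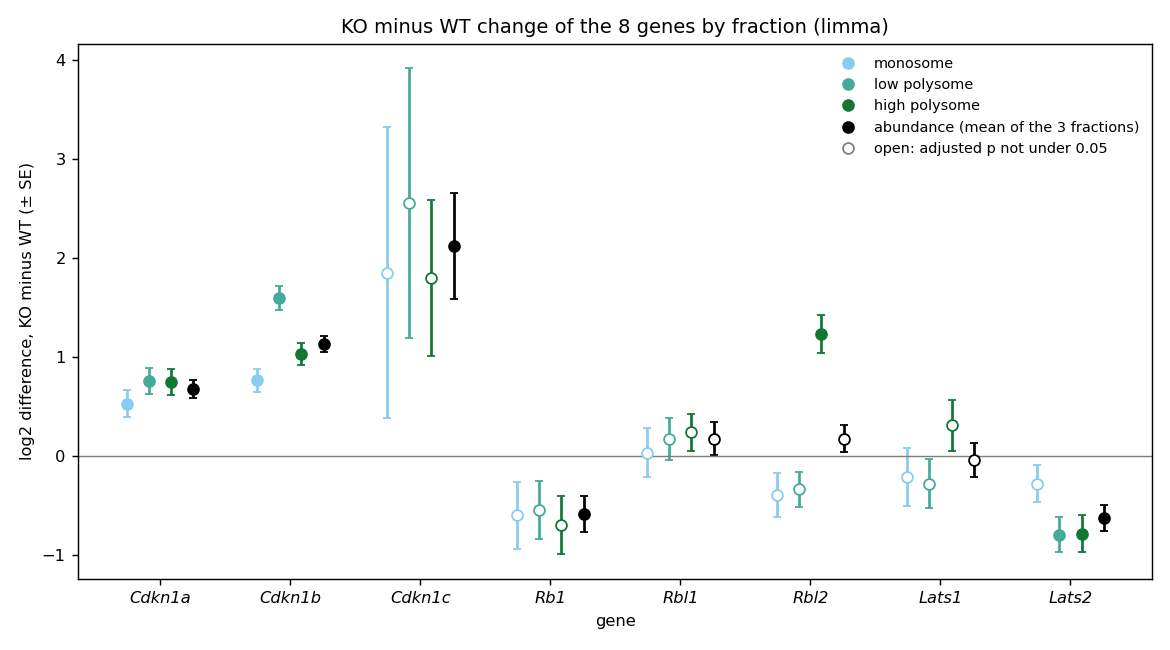
log2 difference between KO and WT (± SE from limma) for the 8 genes in each fraction and in abundance, with filled points for an adjusted p under 0.05. Cdkn1a and Cdkn1b are filled in all fractions, Cdkn1b is highest in the low polysome at 1.60, and Rbl2 is filled in the high polysome alone at 1.24.

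Cdkn1a (ENSMUSG00000023067.13, chromosome 17, 29090976 to 29100727) encodes p21, a p53 target that inhibits CDK2 complexes. It was the most counted of the 8 genes, and WT gradients 1 to 3 gave 489, 543 and 422 CPM in monosomes, 477, 386 and 355 CPM in low polysomes and 569, 444 and 485 CPM in high polysomes. KO gradients gave 778, 686 and 636 CPM, then 649, 732 and 665 CPM, and then 809, 798 and 902 CPM in the same order. The genotypes did not overlap in any fraction, and clone 1 was the highest KO library in the monosome and the lowest in the low polysome. The change was 0.53 in the monosome (SE 0.13, limma adjusted p = 0.00348), 0.76 in the low polysome (SE 0.13, adjusted p = 9.85e-05) and 0.75 in the high polysome (SE 0.13, adjusted p = 0.000109). Abundance rose by 0.68 (SE 0.089, adjusted p = 3.76e-05), and all 4 calls held under every alternative run. The KO effect on the distribution of Cdkn1a between fractions did not pass the test. Its log2 ratio of high polysome to monosome was 0.042 ± 0.29 in WT and 0.26 ± 0.23 in KO (mean ± SD, n = 3).

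Cdkn1b (ENSMUSG00000003031.14, chromosome 6, 134920401 to 134925513) encodes p27, an inhibitor of cyclin E and cyclin A complexes with CDK2. WT gradients gave 102, 95.7 and 86.8 CPM in monosomes, 28.7, 36.3 and 37.7 CPM in low polysomes and 71.2, 73.3 and 68.4 CPM in high polysomes. KO gradients gave 145, 172 and 164 CPM in monosomes, 103, 103 and 104 CPM in low polysomes and 148, 148 and 141 CPM in high polysomes. Every KO library was above every WT library, whichever the fraction. From the highest, the group means ran from KO monosome (160 CPM) and KO high polysome (146 CPM), whose libraries overlapped, to KO low polysome, WT monosome, WT high polysome and WT low polysome, which did not overlap with one another. Of the 3 fractions, the rise was largest in the one where the WT CPM of this gene were lowest.

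The rise of Cdkn1b was 0.77 in the monosome (SE 0.12, limma adjusted p = 3.62e-05), 1.60 in the low polysome (SE 0.12, adjusted p = 3.06e-09) and 1.04 in the high polysome (SE 0.11, adjusted p = 3.94e-07), and 1.13 in abundance (SE 0.083, adjusted p = 2.91e-07). These 4 calls held under every alternative run. In WT, Cdkn1b was lower in the low polysome than in the monosome, with a difference of -1.47 (SE 0.13, adjusted p = 1.98e-08), and in KO the same difference was -0.63 (SE 0.11, adjusted p = 0.000154). The KO effect on this ratio, the KO difference less the WT difference, was 0.84 (SE 0.17, adjusted p = 0.0107). The ratio was -1.81, -1.39 and -1.19 in WT gradients and -0.50, -0.74 and -0.66 in KO gradients, which do not overlap. This call was lost without WT gradient 1 (0.66, adjusted p = 0.107), without WT gradient 2 (0.86, adjusted p = 0.0638) and without KO gradient 3 (0.82, adjusted p = 0.129), and 12 of 15 alternatives kept it. In the high polysome against the monosome, Cdkn1b was lower in WT (-0.41, SE 0.12, adjusted p = 0.00581), a call lost without WT gradient 1 (adjusted p = 0.0622) and with no filter on low counts (adjusted p = 0.0664). The KO effect on that ratio was 0.27 (SE 0.16, adjusted p = 0.26).

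Cdkn1c (ENSMUSG00000037664.13, chromosome 7, 143458339 to 143461050) encodes p57 and is an imprinted gene expressed from the maternal allele. It was barely expressed in WT. WT gradients gave 1.99, 2.56 and 1.24 CPM in monosomes, 0.86, 0.99 and 1.90 CPM in low polysomes and 4.49, 6.002 and 4.99 CPM in high polysomes, from 5 to 60 counts per library. Clone 1 (KO gradient 1) gave 17.99, 29.7 and 79.7 CPM in the same fractions. Clone 2 gave 4.35 and 4.36 CPM in monosomes, 4.36 and 3.59 CPM in low polysomes and 10.5 and 7.37 CPM in high polysomes. Both clones were therefore above all WT libraries of the same fraction, but clone 1 was far above clone 2.

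Abundance of Cdkn1c rose by 2.13 (SE 0.53, limma adjusted p = 0.00448), and the call held in all 13 alternatives, with changes from 1.23 to 2.71. Without clone 1 the rise was 1.23. Within fractions the changes of 1.85 (monosome, SE 1.47, adjusted p = 0.336), 2.56 (low polysome, SE 1.36, adjusted p = 0.128) and 1.80 (high polysome, SE 0.78, adjusted p = 0.0654) were not called. Without clone 1 the spread was smaller and the changes of 1.19, 1.67 and 0.76 were called (adjusted p = 0.0347, 0.00234 and 0.0152). edgeR and DESeq2 also called the rise in both polysome fractions with all libraries. The monosome rise was also called with the compared groups alone (1.87, adjusted p = 0.0201), and the high polysome rise without KO gradient 3 (2.46, adjusted p = 0.0195). In both genotypes Cdkn1c was highest in the high polysome, with a log2 ratio to the monosome of 1.25 ± 0.35 in WT and 1.33 ± 0.72 in KO. This enrichment was not called in the fit of group means, with adjusted p = 0.418 in WT and 0.113 in KO, but was called with the gradient as a block, with adjusted p = 0.0113 in WT and 3.35e-06 in KO.

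Rb1 (ENSMUSG00000022105.6, chromosome 14, 73183673 to 73325822) encodes pRB. WT gradients gave 7.96, 8.60 and 9.53 CPM in monosomes, 7.84, 9.44 and 8.88 CPM in low polysomes and 4.88, 9.003 and 9.98 CPM in high polysomes. KO gradients gave 5.87, 8.46 and 3.98 CPM, then 4.20, 9.002 and 5.70 CPM, and then 5.90, 4.13 and 4.60 CPM. The ranges overlapped in all 3 fractions. Abundance fell by 0.58 (SE 0.18, limma adjusted p = 0.0165), but the call was lost without WT gradient 2 (adjusted p = 0.0669), WT gradient 3 (adjusted p = 0.0562) or KO gradient 3 (adjusted p = 0.0706). The decrease was of like size in the single fractions (-0.59, -0.54 and -0.69), none of which was called. The high polysome value was called without WT gradient 1 (-1.04, adjusted p = 0.0071), with DESeq2 (adjusted p = 0.025) and with DESeq2 size factors (adjusted p = 0.0379), and the low polysome value without KO gradient 2 (-0.78, adjusted p = 0.0425). Counts of Rb1 were 20 to 106 per library, and Gm17233 and Mir687 overlap it on the same strand, which leaves its count uncertain where reads fall in the overlap.

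Rbl1 (ENSMUSG00000027641.13, chromosome 2, 157145893 to 157204534) encodes p107, the pocket protein typical of proliferating cells. Over the monosome and the low and high polysomes its mean was 13.003 ± 3.15, 13.2 ± 2.82 and 17.9 ± 3.38 CPM in WT and 13.98 ± 3.60, 14.8 ± 1.13 and 21.3 ± 2.40 CPM in KO (mean ± SD, n = 3). No KO difference was called, with log2 differences of 0.038, 0.18 and 0.24 (SE 0.25, 0.21 and 0.19). The CPM of Rbl1 were higher in high polysomes than in monosomes in each of the 6 gradients. That difference was called in KO (0.62, SE 0.20, adjusted p = 0.00899) but not in WT (0.42, SE 0.24, adjusted p = 0.135). The KO call was lost without clone 1 (0.52, adjusted p = 0.0677), and with the gradient as a block the WT difference was called too (adjusted p = 0.0311). For Rbl1 the KO effect on the ratio was 0.20 (SE 0.31, adjusted p = 0.688), so the genotypes were not shown to differ.

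Rbl2 (ENSMUSG00000031666.15, chromosome 8, 91070057 to 91123844) encodes p130, the pocket protein typical of resting cells. Its change was called in the high polysome and not in abundance. In the high polysome WT gradients gave 5.65, 6.10 and 6.12 CPM and KO gradients gave 14.4, 14.2 and 13.9 CPM. The genotypes did not overlap there, and the 3 libraries of each lay close together. In the low polysome WT gradients gave 10.9, 13.8 and 17.3 CPM and KO gradients 11.3, 10.5 and 10.9 CPM. In the monosome the values were 10.8, 10.5 and 12.02 CPM in WT and 8.68, 10.6 and 6.67 CPM in KO. In both of these fractions the genotypes overlapped, and the KO mean was the lower one.

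The change of Rbl2 was 1.24 in the high polysome (SE 0.19, limma adjusted p = 3.08e-05), -0.33 in the low polysome (SE 0.18, adjusted p = 0.133) and -0.39 in the monosome (SE 0.22, adjusted p = 0.178). The low polysome value was called without WT gradient 1 (-0.51, adjusted p = 0.0402). Abundance changed by 0.18 (SE 0.14, adjusted p = 0.282). In WT its CPM were lower in high polysomes than in monosomes (-0.90, SE 0.23, adjusted p = 0.00197), and in KO they were higher (0.73, SE 0.19, adjusted p = 0.00169). The median of this difference over all tested genes was -0.018 in WT and 0.031 in KO. Its sign is thus relative to the other genes of each fraction and does not give the amount of Rbl2 mRNA there. The log2 ratio of high polysome to monosome was -0.87, -0.73 and -0.92 in WT gradients and 0.70, 0.40 and 1.01 in KO gradients, so all 6 gradients fell on the side of their genotype. This ratio had a KO effect of 1.63, a 3.09-fold rise (SE 0.30, adjusted p = 0.00136), and it was called in all 15 alternatives, with changes from 1.15 to 1.79 and adjusted p from 5.77e-05 to 0.0267. Counts behind it were modest, at 27 to 58 in WT monosomes, 44 to 65 in WT high polysomes, 52 to 88 in KO monosomes and 129 to 136 in KO high polysomes. After thinning all libraries to one depth, the KO difference of high polysome from monosome missed the threshold (0.70, adjusted p = 0.0535). No KO effect was called on the ratio of low polysome to monosome (0.055, SE 0.29, adjusted p = 0.943).

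**Figure D3:**
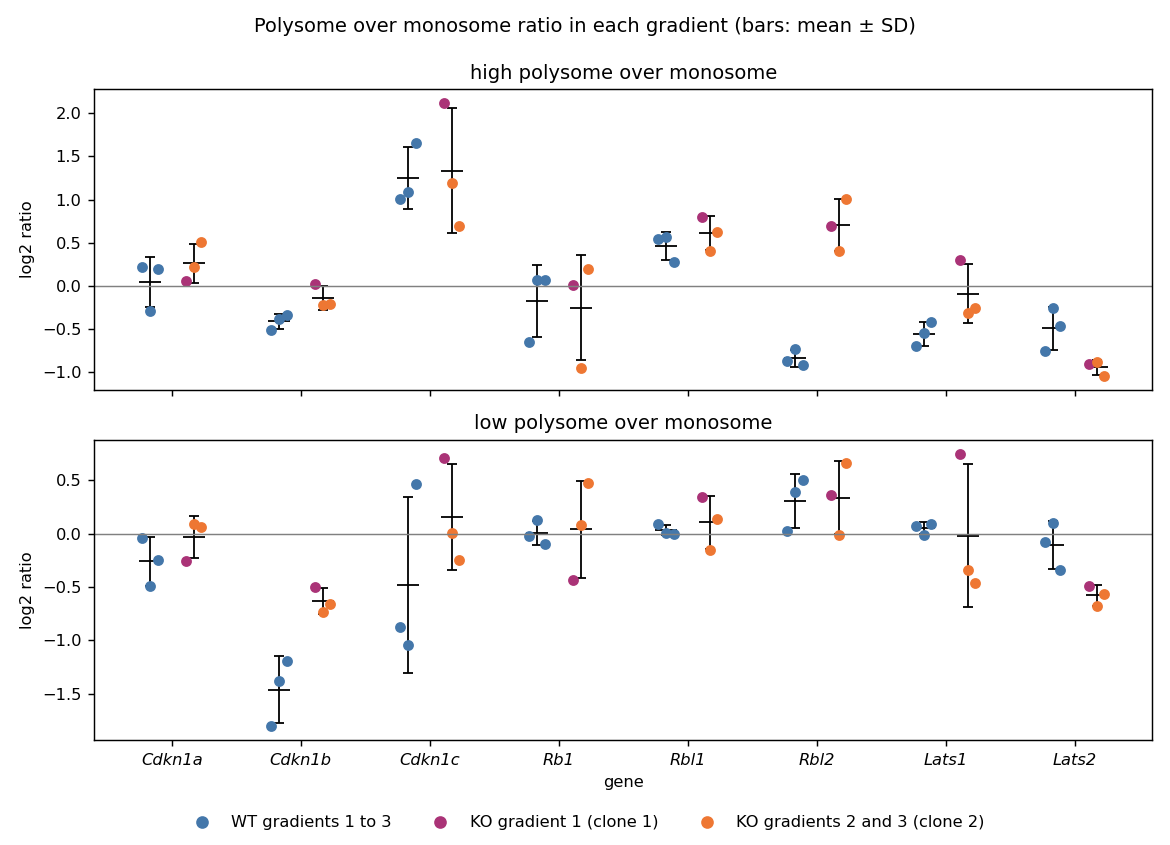
log2 ratio of high polysome (top) and low polysome (bottom) to monosome CPM in each gradient, with a pseudocount of 0.5 CPM and bars at the mean ± SD of 3 gradients. Rbl2 lies below 0 in all WT gradients and above 0 in all KO gradients in the top panel, and Cdkn1b is higher in KO in the bottom panel without overlap.

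Lats1 (ENSMUSG00000040021.13, chromosome 10, 7681214 to 7716460) and Lats2 (ENSMUSG00000021959.15, chromosome 14, 57689662 to 57758388) encode the kinases at the end of the Hippo cascade. Lats1 was among the least counted of the 8 genes, with 16 to 67 counts per library. Its means over the monosome and the low and high polysomes were 6.86 ± 0.45, 7.13 ± 0.54 and 4.53 ± 0.78 CPM in WT and 6.37 ± 2.35, 6.003 ± 0.73 and 5.71 ± 0.91 CPM in KO. No comparison called Lats1 with all libraries, and its difference of -0.62 between high polysome and monosome in WT (adjusted p = 0.0766) was called without KO gradient 1 (adjusted p = 0.0267). Its KO effect on high polysome over monosome was 0.52 (SE 0.39, adjusted p = 0.366). In the KO monosome clone 1 gave 3.70 CPM and clone 2 gave 8.10 and 7.31 CPM.

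Lats2 was lower in KO polysomes. In the low polysome WT gradients gave 22.2, 19.997 and 14.97 CPM and KO gradients 12.9, 9.68 and 10.3 CPM, and in the high polysome WT gradients gave 13.7, 15.5 and 13.7 CPM and KO gradients 9.46, 8.37 and 7.26 CPM. In the monosome WT gradients gave 23.5, 18.6 and 19.1 CPM and KO gradients 18.2, 15.8 and 15.5 CPM. No KO library reached the lowest WT library of its fraction. The change was -0.79 in the low polysome (SE 0.18, limma adjusted p = 0.00101), -0.78 in the high polysome (SE 0.18, adjusted p = 0.0017) and -0.62 in abundance (SE 0.13, adjusted p = 0.0015), and these calls held under every alternative run. In the monosome it was -0.28 (SE 0.18, adjusted p = 0.251). Of the 3 genes with an 8mer for the ESCC miRNAs, Cdkn1a was thus higher in KO in every fraction. Rbl2 was higher in the high polysome, and Lats2 was lower in both polysome fractions. Of the genes without a site, Cdkn1b and Cdkn1c rose in abundance (1.13 and 2.13) and Rb1 had -0.58. A link between the sites and these changes was not tested.

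Lats2 was also lower in high polysomes than in monosomes in both genotypes. The difference was -0.48 in WT (SE 0.18, adjusted p = 0.0288) and -0.99 in KO (SE 0.18, adjusted p = 8.28e-05). The WT call was lost without WT gradient 1 (-0.32, adjusted p = 0.21), WT gradient 3 (adjusted p = 0.069) or KO gradient 3 (adjusted p = 0.0584), at equal depth (adjusted p = 0.0797) and with no filter (adjusted p = 0.127). In KO the low polysome was below the monosome as well (-0.60, SE 0.18, adjusted p = 0.0104), a call lost without KO gradient 2 (adjusted p = 0.0686) or 3 (adjusted p = 0.0593). Both ratios had a KO effect of -0.51 (SE 0.26, adjusted p = 0.183 for the high and 0.26 for the low polysome).

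The study asked how translation level, taken as high polysome over monosome, changes when DDX6 is lost. In WT 3 of the 8 genes (Cdkn1b, Rbl2 and Lats2) were called and all were lower in the high polysome, beside 61.1% of all tested genes called in that comparison. In KO 3 were called, with Rbl1 and Rbl2 higher and Lats2 lower, beside 68.5% of all genes. For low polysome over monosome, Cdkn1b was called in WT (background 43.2%) and Cdkn1b and Lats2 in KO (background 41.1%), all lower in the low polysome. The KO effect on high polysome over monosome was called for Rbl2 alone of the 8, beside 17.8% of all genes. For low polysome over monosome the KO effect was called for Cdkn1b alone, against 4.71% of all genes. The 2 KO effects share the monosome libraries, and the high and low polysome ratios of one genotype share those of that genotype. The median KO effect of the 8 genes on high polysome over monosome was 0.21, beside 0.022 over all genes, but the median of all genes depended on the setting. It was -0.10 with scaling by library size alone, -0.069 with the compared groups alone and 0.26 with no filter, which keeps more genes. The median of the 8 genes was taken in the fit of group means alone. Its distance from the median of all genes was not tested.

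The median KO effect on translation level was higher in each longer class of coding length over all genes, and the 8 genes spanned 477 to 3405 bases. Genes with a coding sequence of up to 500 bases had a median KO effect of -0.54 and those over 3000 bases one of 0.56. Cdkn1a (477 bases) and Cdkn1b (591 bases) had KO effects of 0.22 and 0.27, where the trend over length gave -0.50 and -0.43. Rbl2 (3405 bases) had 1.63 where the trend gave 0.48, and Lats2 (3126 bases) had -0.51 where it gave 0.45. Cdkn1c (1044 bases) had -0.052 where the trend gave -0.11. Rb1 (2763 bases), Rbl1 (3189 bases) and Lats1 (3387 bases) had -0.10, 0.20 and 0.52 beside trend values of 0.42, 0.46 and 0.48. After the trend was subtracted, Rbl2 kept a difference of 1.15 (limma adjusted p = 0.0267), Cdkn1a and Cdkn1b had 0.71 and 0.70 (adjusted p = 0.0291 and 0.0164) and Lats2 had -0.96 (adjusted p = 0.0339), so 4 of the 8 genes were called where 1 was called before. Of the 11778 tested genes with a coding length, 18.7% (2197 genes) were called before this step and 5.86% (690 genes) after it.

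**Figure D4:**
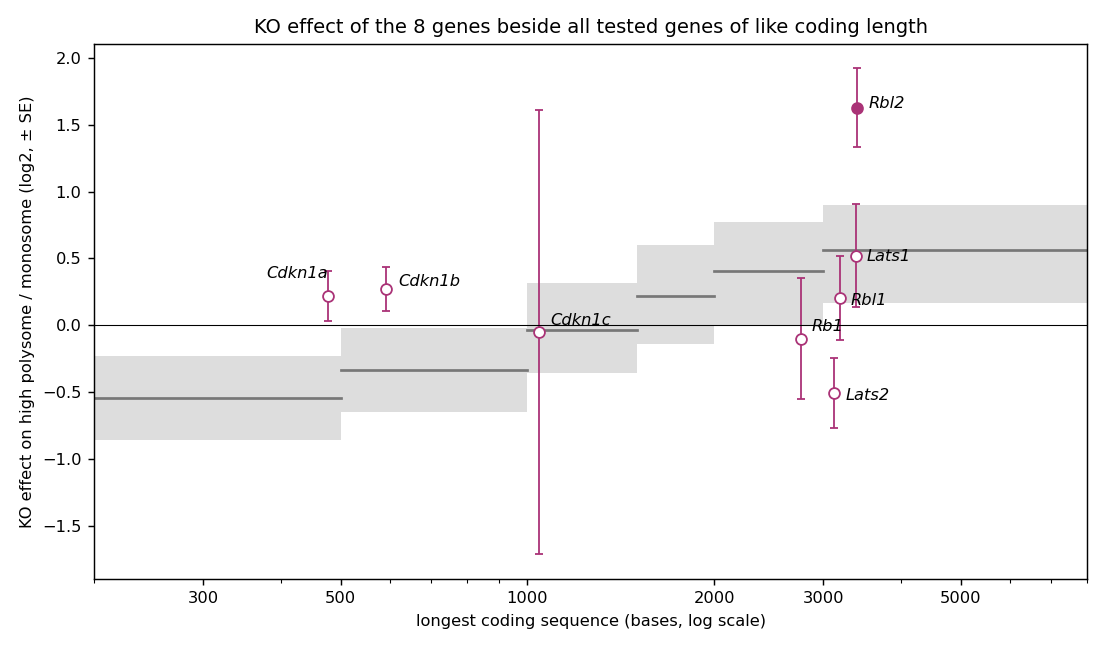
KO effect on high polysome over monosome (log2, ± SE) of the 8 genes against the length of the longest coding sequence (log scale), with the median (line) and quartiles (grey) of all tested genes in 6 length classes, the outer classes drawn to the edge of the plot. Cdkn1a, Cdkn1b and Rbl2 are above the quartiles of their classes, and Rb1 and Lats2 are below those of theirs.

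Genes that act with these brakes were examined as 6 lists of 51 genes, of which 50 were tested (Ccnd2, at a mean of 1.65 CPM, was not). Abundance was higher in KO for 14 and lower for 17, with a median difference of 0.0016 beside -0.016 over all genes. Together that is a share near the 56.6% of all genes called in this comparison, and the lists were not tested against the background. Of 9 G1/S cyclins, kinases and CDC25A, 3 rose and 2 fell. Of 10 E2F and DP factors, the partners that pocket proteins bind, 1 rose and 5 fell, with a median of -0.27. Of 15 Hippo partners and effectors 7 rose and 4 fell (median 0.30), of 6 genes of CIP/KIP turnover and p53 1 rose and 4 fell (median -0.26), and of 4 INK4 inhibitors 1 rose and 1 fell (median 0.15). In the MuvB list, whose core joins p107 and p130 in the DREAM complex, 1 of 6 rose and 1 fell. The one that fell was Mybl2, the S phase factor B-MYB, whose abundance fell by 1.98 (SE 0.080, limma adjusted p = 2.84e-09), called in all 13 alternatives. Lin52, a MuvB subunit, had -0.40 (SE 0.29, adjusted p = 0.263), and was called without WT gradient 3 (-0.73, adjusted p = 0.0298).

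Of the listed genes, the KO effect on high polysome over monosome was called for 10 of the 50 genes, 4 higher and 6 lower, beside the 17.8% of all genes given above, and on low polysome over monosome for Cdc25a alone (0.67, SE 0.18, adjusted p = 0.042). Cdc25a, the phosphatase that activates CDK2, rose by 0.99 (SE 0.18, adjusted p = 0.00166) and Amotl2, an angiomotin that binds YAP, by 1.26 (SE 0.26, adjusted p = 0.00312). Both were called in all 15 alternatives. E2f2, an activating E2F, rose by 1.02 (SE 0.23, adjusted p = 0.00488) and was called in 14 of 15, all but the fit without WT gradient 2 (adjusted p = 0.0535). Cdkn2a, from the INK4 list, fell by 1.09 (SE 0.27, adjusted p = 0.00866) and was called in all but the fit with the coding length trend removed (adjusted p = 0.174). Counts are per gene, so different transcripts of Cdkn2a are not told apart. The INK4 inhibitor Cdkn2d fell by 0.94 (SE 0.25, adjusted p = 0.0128), and was not called without WT gradient 2, without KO gradient 3 or with the length trend removed. The 5 other calls were less stable. Ccnd3 (0.55), Cdk4 (-0.58), the E2F partner Tfdp1 (-1.03), the SCF subunit Skp1a (-0.54) and the YAP paralog Wwtr1 (-0.48) had adjusted p from 0.032 to 0.0451, and each was lost without KO gradient 3. With the length trend removed, Skp1a moved to -0.051 (adjusted p = 0.892) and Cdk4 to -0.38 (adjusted p = 0.221). Tfdp1 stayed at -1.03 in that fit but was no longer called (limma adjusted p = 0.0756).

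**Figure D5:**
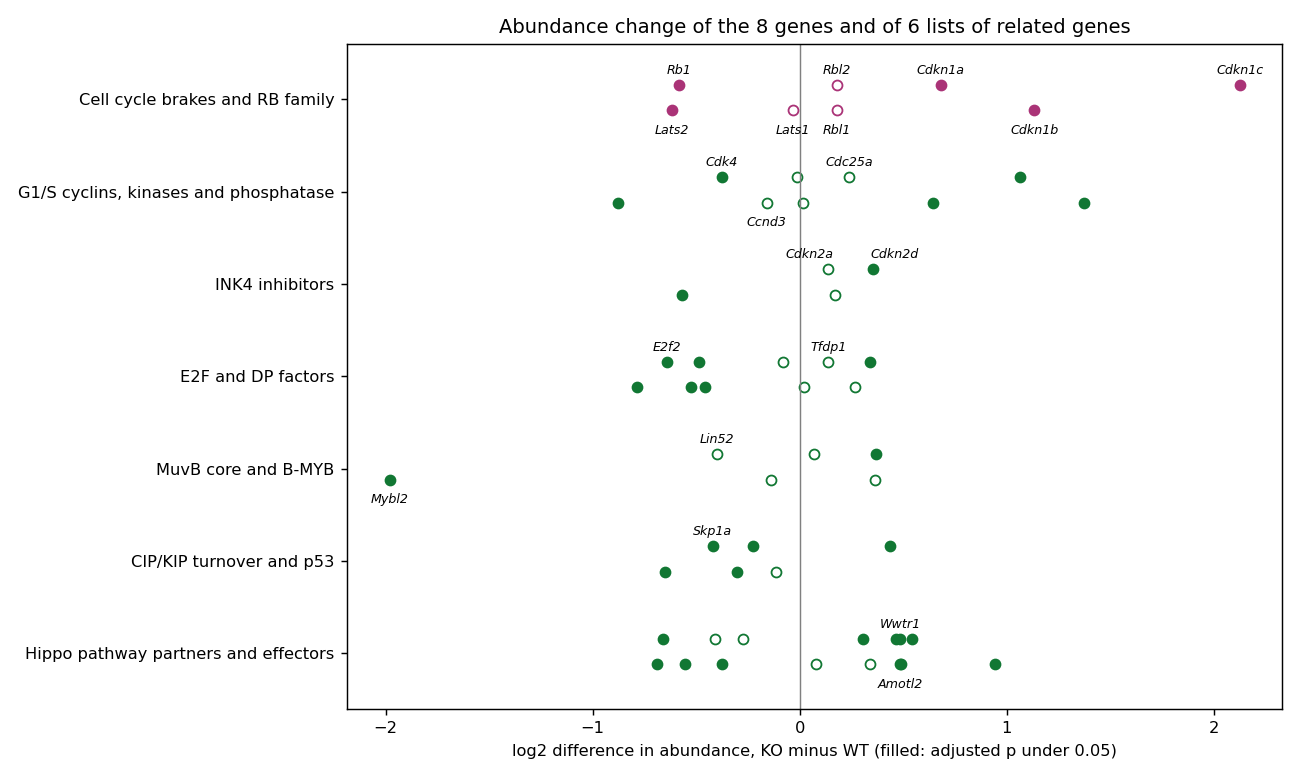
log2 difference in abundance (KO minus WT) of the 8 genes and of the tested genes of 6 related lists, with filled points for an adjusted p under 0.05 and names for the 8 genes and the list genes described in the text. Cdkn1c, Cdkn1b and Cdkn1a lie right of 0 and Rb1 and Lats2 left of it, and Mybl2 is the lowest of the points at -1.98.

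The tested genes whose log2 CPM followed each of the 8 most closely over the 18 libraries are given as a description, since the libraries share genotype and fraction. For Cdkn1a these were Plekhh3 and the transcription factor gene Jun (Pearson r = 0.96 and 0.95), and for Cdkn1b Eno3 and Rela (0.95 and 0.94). For Cdkn1c they were 1700013H16Rik and Sgk1 (0.92 and 0.89), for Rbl1 Larp4 and Kpna1 (0.92 and 0.88) and for Rbl2 Zkscan1 and Fancd2 (both 0.85). Lats2 was nearest to Gm3333 and 5430403G16Rik (0.96 and 0.96), Lats1 to Arsk and Zfp157 (0.88 and 0.76) and Rb1 to Fgd4 and Sgo2b (0.81 and 0.79).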

How the data were processed

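Polysome profiling libraries (QuantSeq 3′ FWD) were analysed from the gene counts the authors deposited. Per the labels and file headers, the authors trimmed reads with cutadapt 1.14, aligned them to mm10 with STAR 2.5.3a, kept unique alignments and counted them by strand with featureCounts 1.5.3 on Gencode M14 with spike-in sequences. No molecular identifiers are mentioned, so PCR copies may be among the counts. The spike-ins (92 sequences) were left out of library sizes.

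Genes with at least 3 CPM in at least 3 libraries were kept (12705, 99.6% of counts), scaled by TMM with edgeR 4.0.16, and modelled in R 4.3.3 by limma 3.58.1 (voom) with a mean for each of the 6 groups. Abundance was fitted on gradient means of log2 CPM (prior count 0.5). limma, the filter and the interaction follow the study's methods. Tests were two-sided, with Benjamini-Hochberg adjustment and a threshold of 0.05. The script was tested on simulated data. Annotation came from Gencode M21, on the same assembly as M14, which matched 51274 identifiers.

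Fractions of a gradient are paired by the labels (correlation of their deviations -0.18 to 0.48), whereas WT and KO gradients share only a number. Between different gradients of the same genotype the range was -0.50 to 0.56. Such ranges are set by single pairs, out of 18 within and 36 between gradients, so they cannot decide whether the pairing holds. Low and high polysomes of the same gradient had 0.32, 0.35 and 0.26 in WT and 0.48, -0.12 and -0.18 in KO. Alternatives were other scalings, filters and tools (DESeq2 1.42.0), a gradient block, equal depth, the compared groups alone, each gradient left out, a length correction and another pseudocount. Named genes were the 8 members, Ddx6, the list genes called in the KO effect on high polysome over monosome or otherwise the 2 most changed in abundance, and for each member the 2 genes of highest correlation. Members and lists were chosen with earlier results of these data known.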

Additional observations from a re-analysis of the deposited data

Results flagged for a closer look

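Rbl2 differed between the genotypes in its ratio of high polysome to monosome. The interaction term was 1.63 (limma adjusted p = 0.00136), with all 3 WT gradients below 0 and all 3 KO gradients above 0.

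Cdkn1b differed between the genotypes in its ratio of low polysome to monosome, with an interaction term of 0.84 (limma adjusted p = 0.0107) that passed the threshold in 12 of 15 alternatives.

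The spike-in sequences, which no comparison uses, had 28 to 169 counts per library, above the 3 counts that a count of 0 allows. That was a trace of 0.00035 to 0.0022% of the gene counts, and whether it stems from added spike-ins was not tested. No library was labelled as free of spike-ins.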

How the results depend on the processing

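Of the 80 results for the 8 genes (8 genes in 10 comparisons) 25 were called, and none of these changed direction in any alternative run. Their calls were lost in 4 fits with other settings and 13 with a gradient left out. Among the 55 results not called, 16 fits with other settings and 10 with a gradient left out gave a call. With no filter, 15269 genes and 1 of the 8 were called in WT high polysome over monosome, and with the replicate block (the gradient as a block) 5 of the 8. The block added Cdkn1c in both genotypes and Rbl1 in WT, and changed no other call of the 8. Removing the length trend gave 690 genes and 4 of the 8 for the KO effect on high polysome over monosome, and 92 genes for low polysome over monosome, where DESeq2 gave 1087 and the compared groups alone 287. With 1 gradient left out, the genes called ranged from 748 to 2618 and from 29 to 819 for these KO effects and from 3417 to 5212 for KO low polysome over monosome, and the lowest of each came without KO gradient 3. The members called ranged from 1 to 5 in WT high polysome over monosome, from 1 to 2 in KO low polysome over monosome and from 0 to 1 in the KO effect on low polysome over monosome.

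All values that changed sign were of results not called, and the cause was not tested. For Cdkn1c these were -0.042 with library size alone in KO low polysome over monosome, and 0.43 (edgeR), 0.38 (DESeq2), 0.27 (replicate block) and 0.059 (length trend removed) for the KO effect on high polysome over monosome. For Rb1, WT low polysome over monosome was 0.057 with no filter, 0.024 with the replicate block and 0.12 at equal depth, KO low polysome over monosome was -0.034 with library size alone and -0.037 at equal depth, and the KO effect on it was -7.02e-05, -0.16 and -0.087 with library size alone, equal depth and the length trend removed. For Rbl1, the monosome difference was -0.22 at equal depth, WT low polysome over monosome was 0.051 with no filter and 0.010 with the block, and the KO effect on high polysome over monosome was -0.26 with the length trend removed. For Rbl2, equal depth gave -0.026 in abundance and -0.019 in WT low polysome over monosome, and the KO effect on the latter ratio was -0.0083 with library size alone, -0.0028 with edgeR and -0.046 with the length trend removed. For Lats1, abundance was 0.0053 with no filter and WT low polysome over monosome -0.0058 at equal depth.

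With a gradient left out, the values crossing 0 had these ranges. Cdkn1a ranged from -0.050 to 0.20 in WT high and -0.11 to 0.076 in KO low polysome over monosome. Cdkn1c ranged from -0.16 to 0.37 in KO low polysome over monosome and -0.42 to 0.28 in the KO effect on high polysome over monosome. Rb1 ranged from -0.32 to 0.11 and -0.11 to 0.019 in WT high and low polysome over monosome, -0.50 to 0.096 and -0.22 to 0.23 in KO, and -0.41 to 0.28 and -0.19 to 0.27 in the KO effects. Rbl1 ranged from -0.16 to 0.19 in the monosome, -0.0054 to 0.31 in the low polysome, -0.024 to 0.29 in abundance and -0.030 to 0.24 in KO low polysome over monosome. Rbl2 ranged from -0.14 to 0.24 in the KO effect on low polysome over monosome. Lats1 ranged from -0.42 to 0.14 in the monosome, -0.14 to 0.11 in abundance, -0.0034 to 0.044 in WT low polysome over monosome, -0.31 to 0.031 and -0.46 to 0.19 in KO high and low polysome over monosome, and -0.48 to 0.17 in the KO effect on the latter. Lats2 ranged from -0.19 to 0.035 in WT low polysome over monosome. With a pseudocount of 2 CPM the mean log2 ratio of high polysome to monosome moved to 0.87 for Cdkn1c and -0.72 for Rbl2 in WT and to -0.84 for Lats2 in KO. DESeq2 gave no adjusted p for Rb1 and Lats1 in the KO effect on low polysome over monosome. Counts as low as 5 (Cdkn1c), 16 (Lats1) and 20 (Rb1) limit the precision for these genes.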
